A study of Mus musculus with 8 samples.

Results

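The 81 genes described here encode subunits of the respiratory chain and of ATP synthase in the mouse nucleus. They were chosen by symbol: a probe set of the array belonged if the platform annotation gave it a single symbol beginning with Nduf followed by a, b, c, s or v and a number, or with Uqcr, Atp5 or Cox and a digit from 4 to 8, or one of the symbols Sdha to Sdhd. The rule found 105 probe sets, and the probe set with the highest mean signal stood for each gene, which left 81 genes of the 19938 that had a single symbol. By complex, 33 genes belonged to complex I, 4 to complex II, 8 to complex III, 19 to complex IV and 17 to complex V. A further 6 probe sets matched the rule but carried several symbols (Cox7c, Ndufb4 and Ndufs5 with a pseudogene or copy) and were left out. Subunits encoded by the mitochondrial genome were not analysed here.

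The RNA came from excised paws of male DBA1J mice, aged 8 to 10 weeks when the groups were formed. Mice of the CIA group, a model of collagen-induced arthritis, were injected at the tail base with 150 µg of type II collagen from chicken, in complete Freund adjuvant, and boosted 3 weeks later in incomplete Freund adjuvant. The adjuvant group received both adjuvants without collagen, so every group carried adjuvant and none was untreated. The CIA+MLIF and adjuvant+MLIF groups followed the same schedules and also received MLIF, monocyte locomotion inhibitory factor, a short peptide known from the parasite Entamoeba histolytica. MLIF was given through the nose every week, beginning 1 week before the first collagen injection in the CIA+MLIF group. Per the sample labels, paws were taken 4 weeks after the booster, whereas the series description places collection before it. Each group of 8 mice was represented by 2 arrays, 8 in all, and the labels call these biological replicates without saying whether an array holds RNA of 1 mouse or of a pool. With 2 arrays a group, the number of arrays limits the precision of every value.

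Oxidative phosphorylation works as a relay in the inner mitochondrial membrane. Complex I takes electrons from NADH and complex II from succinate, complex III passes them to cytochrome c, and complex IV, cytochrome c oxidase, hands them to oxygen. The proton gradient that complexes I, III and IV build drives complex V, ATP synthase. Muscle fibres are rich in these complexes, and striated muscle replaces some ubiquitous subunits of cytochrome c oxidase with isoforms of its own: Cox6a2 in place of Cox6a1, Cox7a1 in place of Cox7a2, and Cox8b in place of Cox8a.

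The strongest changes in the set lay in these muscle isoforms, so the sequences before their start sites are shown with those of their ubiquitous partners. RefSeq promoter windows (GRCm38.p6, from 250 bases before to 50 after the start) were found for 66 of the 81 genes, 71 windows in all. Each sequence runs 5′ to 3′ on the strand of the gene, and capitals mark matches on either strand to the motifs searched: the NRF1 motif (GCGCA, any base, then GCGC), the oestrogen-related receptor motif AAGGTCA, the ETS motif ACTTCCG, the E-box CAGCTG, the CCAAT box, the TATA box TATAAA and the MEF2 site. The window of Cox7a1 lies at chr7:30183921-30184220 on the plus strand, and the other windows lie on the minus strand: Cox7a2 at chr9:79759804-79760103, Cox8b at chr7:140900397-140900696, Cox8a at chr19:7217567-7217866 and Cox6a1 at chr5:115348909-115349208. Cox6a2 had no window.
Cox7a1 (muscle): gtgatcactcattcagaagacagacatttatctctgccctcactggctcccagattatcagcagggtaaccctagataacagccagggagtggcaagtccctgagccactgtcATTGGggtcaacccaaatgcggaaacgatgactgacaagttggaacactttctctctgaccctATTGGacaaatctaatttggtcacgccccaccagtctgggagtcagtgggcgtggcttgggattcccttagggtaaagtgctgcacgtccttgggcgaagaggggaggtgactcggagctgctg
Cox7a2 (ubiquitous): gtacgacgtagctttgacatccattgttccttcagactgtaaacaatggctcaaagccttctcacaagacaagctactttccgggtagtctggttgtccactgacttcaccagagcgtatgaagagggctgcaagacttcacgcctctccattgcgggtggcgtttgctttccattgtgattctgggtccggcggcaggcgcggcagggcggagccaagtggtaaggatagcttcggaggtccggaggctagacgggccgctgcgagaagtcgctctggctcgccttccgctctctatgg
Cox8b (muscle): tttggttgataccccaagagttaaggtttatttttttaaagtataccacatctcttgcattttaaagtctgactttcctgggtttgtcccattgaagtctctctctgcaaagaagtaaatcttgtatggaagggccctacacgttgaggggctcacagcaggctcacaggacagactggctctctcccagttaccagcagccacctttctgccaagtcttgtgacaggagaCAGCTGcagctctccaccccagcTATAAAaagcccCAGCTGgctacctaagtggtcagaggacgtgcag
Cox8a (ubiquitous): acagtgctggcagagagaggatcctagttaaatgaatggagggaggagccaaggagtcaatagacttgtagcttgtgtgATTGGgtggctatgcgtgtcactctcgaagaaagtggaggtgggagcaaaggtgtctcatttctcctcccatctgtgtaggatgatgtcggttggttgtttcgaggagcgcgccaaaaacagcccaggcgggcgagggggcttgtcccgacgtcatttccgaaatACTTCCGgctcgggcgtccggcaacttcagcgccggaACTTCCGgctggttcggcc
Cox6a1 (ubiquitous): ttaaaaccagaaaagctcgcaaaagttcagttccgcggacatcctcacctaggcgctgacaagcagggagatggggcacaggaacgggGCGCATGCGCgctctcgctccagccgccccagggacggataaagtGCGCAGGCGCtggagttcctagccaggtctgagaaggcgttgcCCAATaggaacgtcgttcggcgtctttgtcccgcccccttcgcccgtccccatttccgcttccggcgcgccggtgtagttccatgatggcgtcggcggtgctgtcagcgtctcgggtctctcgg

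The windows of the muscle isoforms held few CpG dinucleotides, 7 in Cox7a1 and 2 in Cox8b, against 20 in Cox7a2, 19 in Cox8a and 32 in Cox6a1. The median was 19 over the members' windows and 7 over all 32851 windows. Cox8b carried a TATA box and 2 E-boxes, and Cox7a1 carried 2 CCAAT boxes. Among the ubiquitous partners, Cox6a1 carried 2 NRF1 motifs and a CCAAT box, Cox8a carried 2 ETS motifs and a CCAAT box, and Cox7a2 held none of the motifs searched. Over the whole set, 23.9% of the members' windows held the NRF1 motif against 4.6% of all windows, and 15.5% held the ETS motif against 6.42%. Both of these motifs contain CpG, of which the members' windows held more. The windows compared were not matched for CpG content, and the part it plays in these shares was not tested. The oestrogen-related receptor motif was present in 9.86% against 4.72%, the CCAAT box in 42.3% against 37.4% and the TATA box in 12.7% against 13.6%. The E-box was present in 8.45% of the members' windows against 16.3% of all windows. The MEF2 site was in 0 of the 71 windows against 3.19% of all windows. A match describes letters in a window and does not show that a factor binds there.

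Signals are log2 values as deposited, on which a difference of 1 is a doubling, and a gene is said to rise or fall where limma gave an adjusted p under 0.05 over all 28944 probe sets. The median signal of an array was 7.08 and 7.08 for the adjuvant group, 7.08 and 7.08 for adjuvant+MLIF, 6.66 and 7.07 for CIA, and 7.10 and 7.08 for CIA+MLIF, each pair in replicate order. The lower median of CIA replicate 1 drew the median change of all probe sets in CIA against adjuvant to -0.25, so group medians below are also given relative to the median of all probe sets. The spread between replicates differed: the SD of the difference between the arrays of a pair, over all probe sets, was 0.0936 for adjuvant+MLIF, 0.207 for adjuvant, 0.263 for CIA+MLIF and 0.324 for CIA. The adjuvant+MLIF arrays were not identical, yet their 81 member values differed with an SD of only 0.0397. If these arrays stem from the same RNA, the shared estimate of spread is too small. The labelled tissue showed its muscle: all 16 markers of skeletal muscle fibres lay above the median of the control entries in every group, and so did all 10 chondrocyte markers.

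In CIA paws the muscle isoforms of cytochrome c oxidase had signals about 3-fold lower than in adjuvant paws, while their ubiquitous partners did not pass the test. Cox6a2 (probe set 10568369), the muscle form of subunit VIa, gave 11.00 and 11.04 on the adjuvant arrays, 11.06 and 11.07 on the adjuvant+MLIF arrays, 9.14 and 9.73 on CIA, and 10.98 and 10.98 on CIA+MLIF. Only the CIA arrays stood apart, and the other 6 lay within a narrow band. The fall was -1.58 ± 0.19 (log2, SE, n = 2 arrays a group; limma adjusted p = 0.000629). Skeletal muscle fibre genes fell on the same arrays, 16 of 16, beside 14.2% of all probe sets. In whole paws fewer cells of a type and less RNA per cell cannot be told apart.

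Cox7a1 (probe set 10551836), the muscle form of subunit VIIa, gave 10.96 and 11.35 on the adjuvant arrays, 11.17 and 11.17 on adjuvant+MLIF, 9.12 and 9.73 on CIA, and 10.91 and 11.12 on CIA+MLIF. Both CIA arrays again lay below every other array. It fell by 1.73 ± 0.22 on the log2 scale (SE, limma adjusted p = 0.000828), which is 3.32-fold. Cox8b (probe set 10569008), the muscle form of subunit VIII, gave 10.42 and 11.46 on adjuvant, 11.30 and 11.29 on adjuvant+MLIF, 8.94 and 9.59 on CIA, and 10.53 and 11.25 on CIA+MLIF. Its adjuvant arrays were far apart, but the CIA arrays still lay below both. It fell by 1.68 ± 0.36 on the log2 scale (SE, limma adjusted p = 0.013).

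The ubiquitous partners followed other courses. Cox6a1 (probe set 10532993) gave 9.16 and 9.10 on adjuvant, 9.06 and 9.09 on adjuvant+MLIF, 9.34 and 9.44 on CIA, and 9.14 and 9.08 on CIA+MLIF. It was the only member whose CIA arrays both lay above both adjuvant arrays, with a difference of 0.26 that did not pass the test on the deposited values (adjusted p = 0.203) and did after quantile normalization (0.40, adjusted p = 0.031). Cox7a2 (probe set 10595280) gave 8.74 and 9.01 on adjuvant, 9.15 and 9.16 on adjuvant+MLIF, 8.25 and 8.81 on CIA, and 8.81 and 8.86 on CIA+MLIF, so its CIA and adjuvant arrays overlapped (-0.34, adjusted p = 0.24). Cox8a (probe set 10465633) gave 8.63 and 9.12 on adjuvant, 9.19 and 9.19 on adjuvant+MLIF, 8.95 and 9.17 on CIA, and 9.05 and 9.14 on CIA+MLIF, and overlapped as well (0.19, adjusted p = 0.486).

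**Figure D1:**
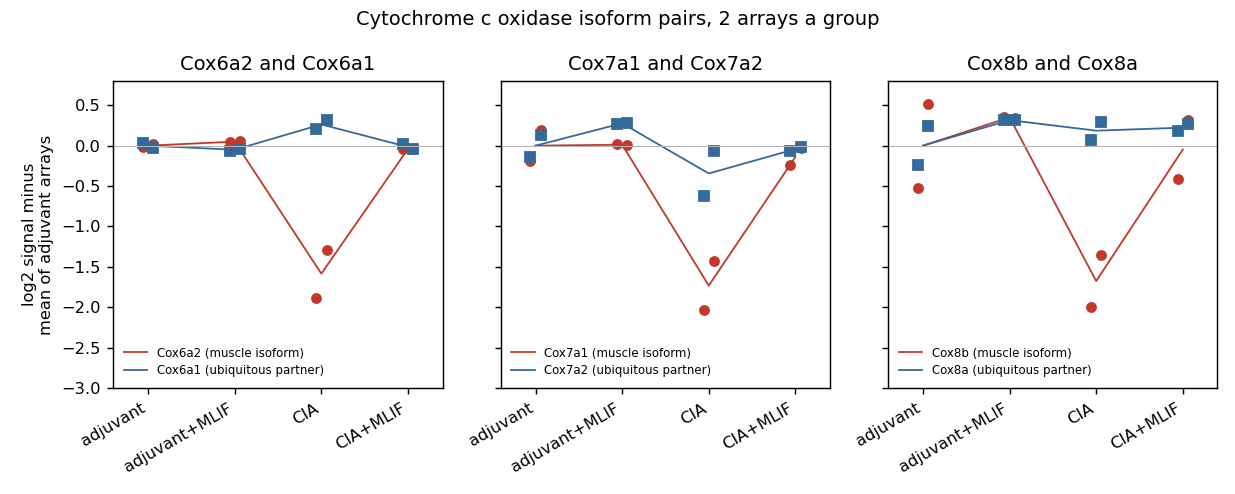
Log2 signal of each muscle isoform (red) and its ubiquitous partner (blue) minus the mean of the adjuvant arrays, in the 4 groups; points are single arrays and lines join group means. The muscle isoforms drop on both CIA arrays only, with changes from -1.58 to -1.73, while the CIA means of the partners lie between -0.34 and 0.26.

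Within each array, the signal of the muscle isoform minus that of its partner was lower in CIA than in adjuvant by 1.85 for Cox6a2 and Cox6a1, by 1.39 for Cox7a1 and Cox7a2, and by 1.86 for Cox8b and Cox8a. This difference does not depend on the brightness of an array. On the CIA arrays it was -2.09 and -1.60, -1.41 and -1.36, and -2.07 and -1.65 for these pairs, relative to the adjuvant mean, and the adjuvant arrays spanned at most -0.28 to 0.28. The groups did not overlap for any of the 3 pairs. An exact two-sided permutation test of 2 arrays against 2 gave p = 0.333 for each, the smallest p this design allows.

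Across the complexes, most subunit genes had a lower fitted signal in CIA, and a minority of them passed the test. The fitted change was below 0 for 77 of the 81 members, but the median of all probe sets was itself -0.25. Relative to that median, 63 members lay below and 18 above. Of the 81 members, 28 fell and 0 rose, which is 34.6% against 14.2% of all probe sets lower and 4.3% higher. The falls were spread over all complexes: 14 of 33 genes of complex I, 1 of 4 of complex II, 2 of 8 of complex III, 5 of 19 of complex IV and 6 of 17 of complex V. The median change relative to all probe sets was -0.30 for complex I, -0.13 for complex II, -0.23 for complex III, -0.24 for complex IV and -0.27 for complex V. Differences between complexes were not tested. The CIA arrays lay below both adjuvant arrays for 56 of the 81 members, beside 44.7% of all probe sets, and above both for 1, beside 12.5%. After quantile normalization 39 members fell, beside 13.7% of all probe sets, and 1 rose, beside 14.4%; all 28 falls on the deposited values were among them.

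**Figure D2:**
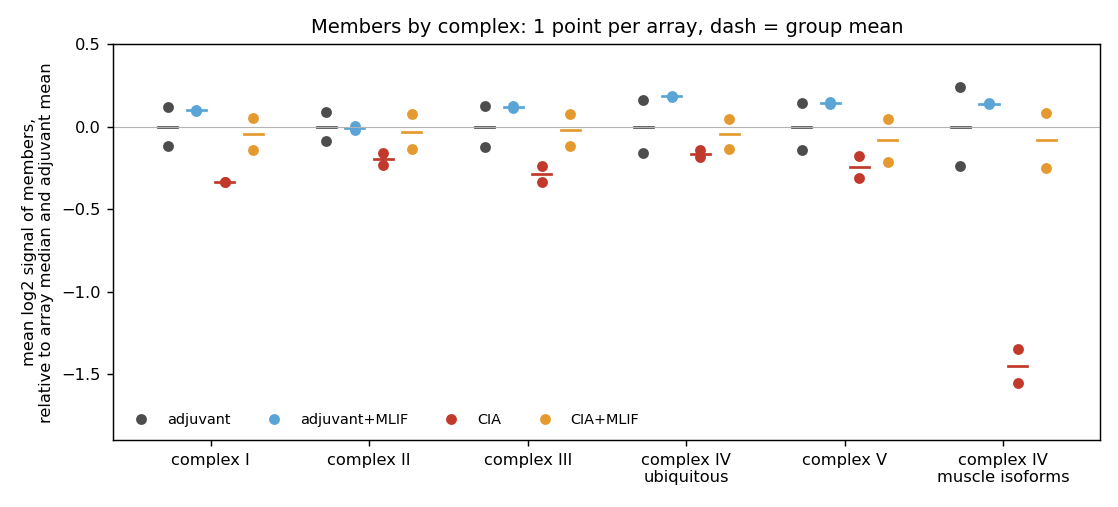
Mean log2 signal of the members of each complex, relative to the median of the array and to the mean of the adjuvant arrays; points are single arrays of the 4 groups and dashes are group means. The CIA arrays lie at -1.55 and -1.34 for the muscle isoforms, and at -0.34 and -0.33 for complex I. For the ubiquitous subunits of complex IV they overlap the adjuvant arrays. For complex V they lie at -0.18 and -0.31 and overlap the CIA+MLIF arrays, at -0.21 and 0.05.

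Complex I held the largest share of falls, 42.4% of its genes, beside 14.2% of all probe sets. Of 6 core subunits, which carry the flavin and the iron-sulphur clusters, 4 fell: Ndufs1, Ndufs3, Ndufs7 and Ndufv2, named after their values were seen. Ndufs1, the largest core subunit, gave 10.25 and 10.26 on adjuvant and 9.38 and 9.53 on CIA (-0.79, adjusted p = 0.00959). Ndufv1, which binds NADH, did not pass (-0.49, adjusted p = 0.0635), and the arrays of Ndufs8 overlapped. The core subunits had a median of -0.41 relative to all probe sets, and the 27 accessory subunits, of which 10 fell, a median of -0.27.

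Among the accessory subunits of complex I, Ndufb5 changed most in CIA: it gave 10.74 and 11.28 on adjuvant, 11.45 and 11.44 on adjuvant+MLIF, 9.55 and 10.28 on CIA, and 10.87 and 11.24 on CIA+MLIF. Its CIA arrays lay below the rest but were themselves far apart (-1.09 ± 0.27, SE, adjusted p = 0.0232). Ndufb9 was tighter, with 9.87 and 10.11 on adjuvant, 10.05 and 10.05 on adjuvant+MLIF, 9.00 and 9.19 on CIA, and 9.92 and 10.09 on CIA+MLIF (-0.89 ± 0.16, adjusted p = 0.00492). Both belong to the membrane arm. Ndufs5 fell as well (-0.86, adjusted p = 0.0395), on a probe set that carried its symbol alone. Probe sets that named Ndufs5 with a pseudogene or copy were left out. Whether the probe set used also matches such a copy was not tested, so its signal is uncertain.

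Complex II, succinate dehydrogenase, also serves the tricarboxylic acid cycle. Of its 4 genes, Sdhc, a membrane anchor, gave 10.70 and 10.83 on adjuvant, 10.84 and 10.87 on adjuvant+MLIF, 9.95 and 10.21 on CIA, and 10.53 and 10.73 on CIA+MLIF, and fell by 0.68 ± 0.16 on the log2 scale (SE, adjusted p = 0.0183). Its CIA arrays lay below all others. Sdha, the flavoprotein, gave 11.00 and 11.21 on adjuvant against 10.50 and 10.76 on CIA, without overlap, and did not pass (-0.47, adjusted p = 0.0872). Sdhb, the iron-sulphur subunit (-0.28, adjusted p = 0.283), and the anchor Sdhd (-0.22, adjusted p = 0.377) had overlapping arrays.

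In complex III, Uqcrc1, a core protein, gave 10.87 and 11.08 on adjuvant, 11.00 and 10.98 on adjuvant+MLIF, 10.22 and 10.27 on CIA, and 10.86 and 11.08 on CIA+MLIF, and fell by 0.73 ± 0.15 on the log2 scale (SE, adjusted p = 0.0115). The CIA arrays were close to each other and lay below the rest. Uqcrb, which lies near the ubiquinone site, fell by 0.70 on the log2 scale (adjusted p = 0.0471) on the probe set used, whereas its other probe sets gave -0.40 (adjusted p = 0.146) and -0.39 (adjusted p = 0.196). Uqcrfs1, the Rieske iron-sulphur protein, differed by -0.30 and did not pass (adjusted p = 0.155).

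In complex IV the 3 muscle isoforms made up most of the falls. Of 10 ubiquitous subunits 2 fell, Cox5a, which gave 9.66 and 10.02 on adjuvant and 8.88 and 9.30 on CIA (-0.75, adjusted p = 0.0269), and Cox5b, which gave 11.19 and 11.41 on adjuvant and 10.50 and 10.80 on CIA (-0.65, adjusted p = 0.025); both were named after their values were seen. That is 20% of the ubiquitous subunits, beside 14.2% of all probe sets. The CIA arrays lay below both adjuvant arrays for 6 of the 10, beside 44.7% of all probe sets. After quantile normalization 5 of the 10 fell, beside 13.7% of all probe sets, and 1 rose, beside 14.4%. Relative to the array median, the ubiquitous subunits averaged -0.14 and -0.18 in CIA replicates 1 and 2 and -0.16 and 0.16 in the adjuvant replicates, so these groups overlapped. For the muscle isoforms the same average was -1.55 and -1.34 in CIA against -0.24 and 0.24 in adjuvant. None of the 5 other tissue-restricted genes passed the test in CIA: Cox4i2, the lung form of subunit IV, differed by -0.19, Ndufa4l2, a hypoxia-inducible relative of Ndufa4, by 0.12, and the testis forms Cox6b2, Cox7b2 and Cox8c by -0.29, -0.53 and -0.62. The sign turned for Cox4i2 with centred arrays (0.02) and for Cox6b2 after quantile normalization (0.01). Cox7b2 lay below the median of the control entries in every group and Cox8c did so in CIA, so these values describe signals near background.

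In complex V, 2 of 5 genes of the catalytic head fell, beside 14.2% of all probe sets, and a count over 5 genes is imprecise. Atp5c1, the gamma subunit of the rotating shaft, gave 12.17 and 12.26 on adjuvant, 12.31 and 12.27 on adjuvant+MLIF, 11.49 and 11.64 on CIA, and 12.07 and 12.16 on CIA+MLIF, and fell by 0.65 ± 0.14 on the log2 scale (SE, adjusted p = 0.0141). Its CIA arrays lay below all others. Atp5b, the catalytic beta subunit, named after its values were seen, fell by 0.52 (log2, adjusted p = 0.0472), and Atp5a1, the alpha subunit, did not pass (-0.42, adjusted p = 0.105). In the stalk, Atp5o, which links the head to the stalk, fell by 0.75 on the log2 scale (adjusted p = 0.0123), and Atp5h fell by 0.69 (log2, adjusted p = 0.0421), while its other probe sets gave -0.61 (adjusted p = 0.0875) and -0.65 (adjusted p = 0.0501). The 3 genes for the c ring went separate ways: Atp5g1 fell by 0.62 on the log2 scale (adjusted p = 0.0463), Atp5g2 differed by -0.18 (adjusted p = 0.434) and Atp5g3 by 0.10 (adjusted p = 0.655).

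**Figure D3:**
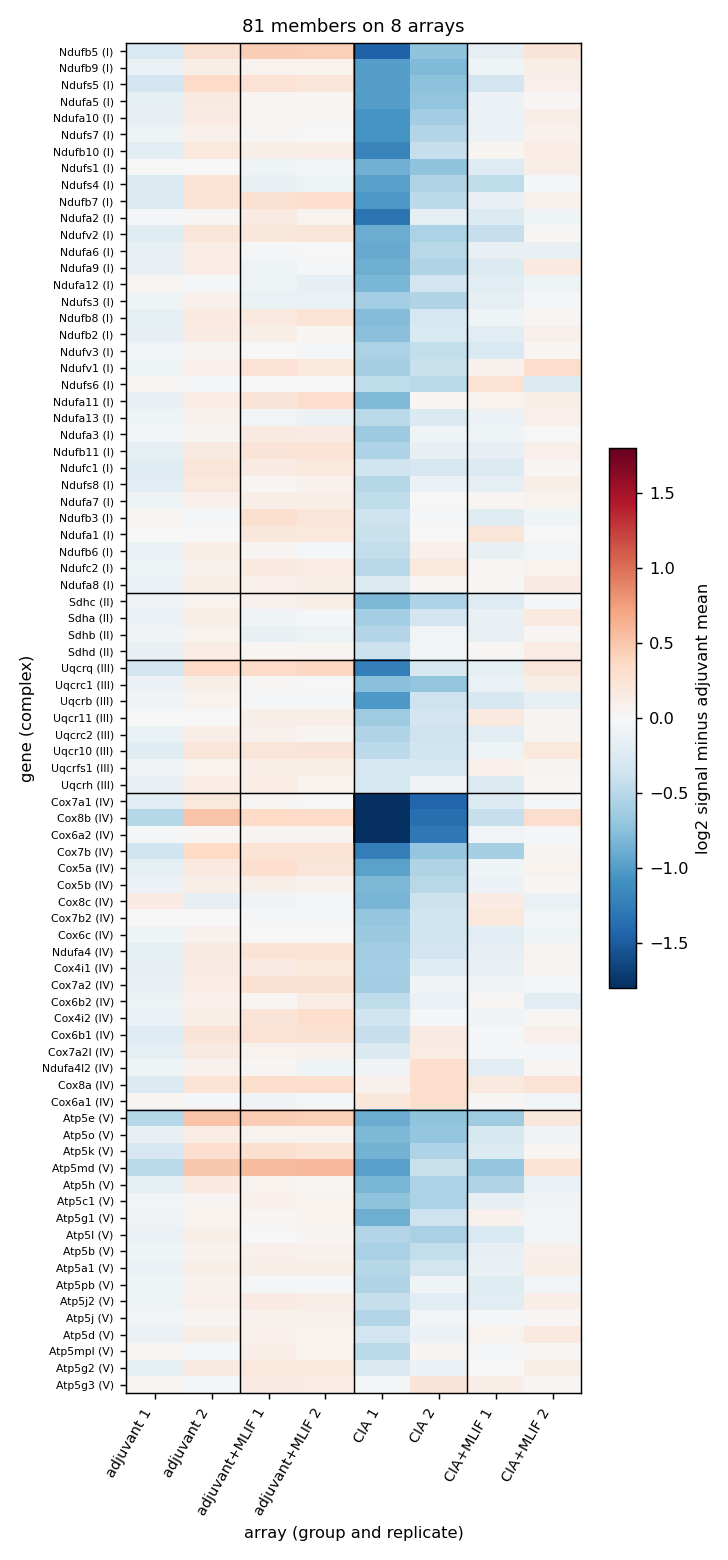
Log2 signal of each of the 81 members minus its mean on the adjuvant arrays, on all 8 arrays, grouped by complex and ordered by the change in CIA; colours are capped at -1.8 and 1.8. The CIA columns are blue in most rows, those of CIA replicate 1 deeper than those of replicate 2, and Cox7a1, Cox8b and Cox6a2 are the darkest rows. The arrays are not centred here, and the median of CIA replicate 1 is lower (6.66 against 7.07). Relative to the array median the members averaged -0.28 in CIA replicate 1 and -0.32 in replicate 2.

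The count of 28 depended on single arrays, and only Cox6a2 and Cox7a1 passed the test in each of the 8 fits that left out 1 array. Members lower in CIA numbered 2 (2.47% against 5.16% of all probe sets) without adjuvant replicate 2, 11 (13.6% against 5.38%) without adjuvant replicate 1, 11 (13.6% against 9.19%) without either adjuvant+MLIF array, 17 (21% against 10.4%) without either CIA+MLIF array, 15 (18.5% against 13%) without CIA replicate 1 and 65 (80.2% against 55.7%) without CIA replicate 2. The direction was steadier than the call: 70 of the 81 members kept their sign in all 8 fits.

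With MLIF given to collagen-treated mice, the muscle isoforms lay near their adjuvant signal and part of the other subunit genes were higher than in CIA. Of the 81 members, 20 rose and 0 fell in CIA+MLIF against CIA, which is 24.7% against 11.5% of all probe sets higher and 3.25% lower. By complex, 8 of 33, 1 of 4, 2 of 8, 6 of 19 and 3 of 17 rose in complexes I to V. The count for complex IV includes Cox7b2 (0.60, adjusted p = 0.043), which lay below the control entries in every group and did not pass after quantile normalization (0.23, adjusted p = 0.161). The median relative to all probe sets was 0.25 for complex I, 0.15 for complex II, 0.24 for complex III, 0.13 for complex IV and 0.15 for complex V. Relative to the array median, complex V averaged -0.21 in CIA+MLIF replicate 1, between the CIA arrays at -0.18 and -0.31, so these groups overlapped. This comparison shares the CIA arrays with CIA against adjuvant, so opposite signs in the 2 comparisons are not independent. The CIA+MLIF arrays lay above both CIA arrays for 59 members, beside 40.7% of all probe sets, and below both for 1, beside 10.9%. After quantile normalization 34 members rose, beside 11.5% of all probe sets, and 2 fell, Cox6a1 and Ndufa4l2, beside 13%.

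The rises were largest in Cox8b (1.63 ± 0.36, SE, adjusted p = 0.0178), Cox7a1 (1.59 ± 0.22, adjusted p = 0.00184) and Cox6a2 (1.54 ± 0.19, adjusted p = 0.00103). Ndufb5 rose by 1.14 (adjusted p = 0.0233) and Ndufb9 by 0.91 (adjusted p = 0.00574) in complex I, and Sdhc rose by 0.55 (adjusted p = 0.0491) in complex II. In complex III, Uqcrc1 rose by 0.73 (adjusted p = 0.0142), and Uqcr11, a small accessory subunit, gave 8.07 and 8.36 on CIA and 8.89 and 8.77 on CIA+MLIF (0.61, adjusted p = 0.0299), though its other probe set gave 0.27 (adjusted p = 0.294). The CIA+MLIF arrays lay above both CIA arrays in each of these genes.

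In complex V, Atp5g1 rose by 0.64 (adjusted p = 0.0488), Atp5o by 0.57 (adjusted p = 0.0444) and Atp5c1 by 0.55 (adjusted p = 0.0349). Atp5h had fallen in CIA and did not pass here (0.36, adjusted p = 0.231). Within each array, the muscle isoform minus its partner was higher in CIA+MLIF than in CIA by 1.82, 1.29 and 1.59 for the pairs of Cox6a2, Cox7a1 and Cox8b, again with the smallest exact two-sided permutation p of 0.333. Members higher numbered 2 (2.47% against 4.94% of all probe sets) without CIA+MLIF replicate 2, 6 (7.41% against 4.33%) without CIA+MLIF replicate 1, 10 (12.3% against 7.39%) without either adjuvant array, 9 (11.1% against 7.33%) without either adjuvant+MLIF array, 13 (16% against 11%) without CIA replicate 1 and 59 (72.8% against 55.3%) without CIA replicate 2. Cox6a2 and Cox7a1 again passed in all 8 of these fits.

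**Figure D4:**
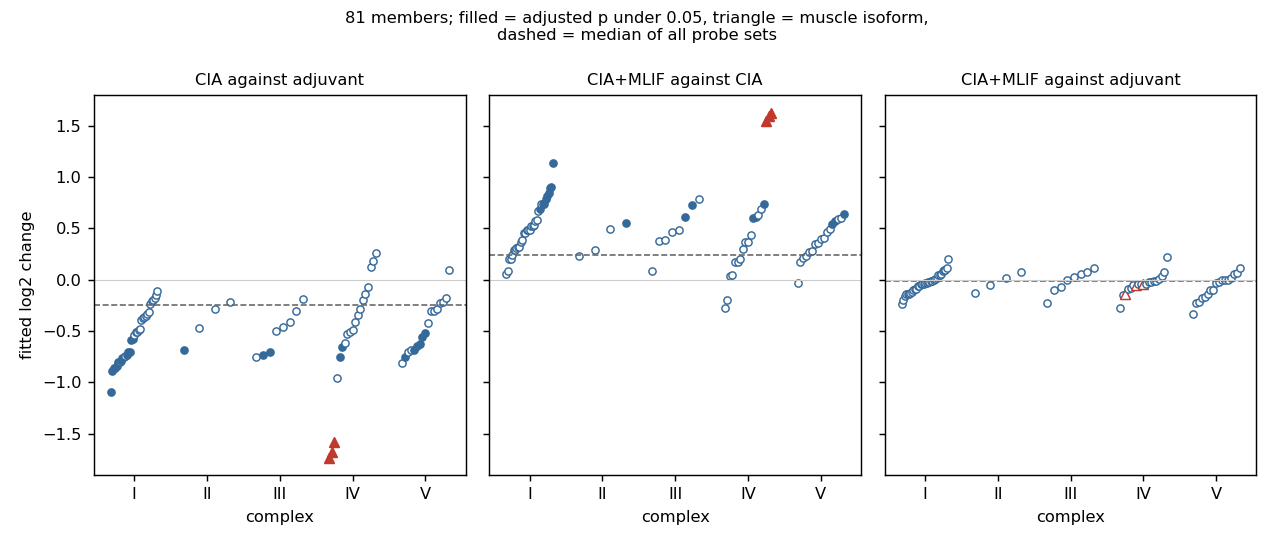
Fitted log2 change of the 81 members by complex, from left to right in CIA against adjuvant, in CIA+MLIF against CIA, and in CIA+MLIF against adjuvant; filled symbols passed the test, triangles are the muscle isoforms and the dashed line is the median of all probe sets. The members lie mostly below the line in the left panel, where 28 are filled, mostly above it in the middle panel, where 20 are filled, and near 0 in the right panel, where 0 are filled.

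In CIA+MLIF paws no member differed from either adjuvant group past the test. Against adjuvant, 0 of the 81 members passed by limma (0 at an unadjusted p under 0.05), beside 0.688% of all probe sets higher and 0.145% lower, and the changes ran from -0.33 for Atp5h to 0.22 for Cox8a. The muscle isoforms differed by -0.04 for Cox6a2, -0.14 for Cox7a1 and -0.05 for Cox8b, and their distance from the partner by -0.02, -0.10 and -0.27. Against adjuvant+MLIF, 0 members passed by limma (1 at an unadjusted p under 0.05, Ndufb3, at -0.40), beside 0.712% of all probe sets higher and 0.0173% lower. Both CIA+MLIF arrays lay below both adjuvant+MLIF arrays for 50 of the 81 members and above them for 0, beside 32.2% and 21% of all probe sets, with a median of -0.10 relative to all probe sets and a lowest change of -0.80 in Atp5md. With a median SE of 0.18 over all probe sets, a change as small as that median could not be resolved for a single gene. The change of Atp5md was larger and did not pass either. A p that misses the threshold does not show that the groups are alike.

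MLIF without collagen left no member past the test. In adjuvant+MLIF against adjuvant, 0 of 81 passed by limma (0 at an unadjusted p under 0.05), and 0% of all probe sets did so in either direction. The member with the largest change was Atp5md, a small membrane subunit of ATP synthase, at 0.57. Atp5md had 3 probe sets, which differed in size of change in CIA against adjuvant (-0.69 on the probe set used, -0.55 and -0.25). The interaction, the MLIF effect in collagen-treated mice minus that in adjuvant-treated mice, was higher for 2 members and lower for 0, beside 5.62% and 1.62% of all probe sets. These were Cox7a1 (1.58 ± 0.31, SE, adjusted p = 0.016) and Cox6a2 (1.49 ± 0.27, adjusted p = 0.0109). For Cox8b the interaction was 1.28 ± 0.51 and did not pass (adjusted p = 0.19). After quantile normalization the interaction was higher for 15 members and lower for 0, beside 8.61% and 8.79% of all probe sets. Leaving out 1 array gave from 0, without either CIA+MLIF array or adjuvant replicate 2, to 34 without CIA replicate 2, where 42% of members stood beside 41.1% of all probe sets.

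Genes around the respiratory chain were read from lists of known function, beside 14.2% of all probe sets lower in CIA and 4.3% higher. Among 9 subunits and carriers that the rule did not name, Cyc1, the cytochrome c1 of complex III, gave 10.31 and 10.77 on adjuvant and 9.67 and 9.91 on CIA and fell by 0.74 (log2, adjusted p = 0.0397), and Gpd2, the glycerol-3-phosphate dehydrogenase of mitochondria, fell by 0.60 (log2, adjusted p = 0.0376). Atpif1, which encodes the inhibitor of ATP synthase running in reverse, rose from 9.13 and 9.22 on adjuvant to 9.63 and 9.85 on CIA (0.57, adjusted p = 0.0278) and stood at 9.21 and 9.16 on CIA+MLIF; it was singled out after its values were seen. Of 35 assembly factors, 3 fell and 0 rose, among them Atpaf1 (-0.78) and Cox20 (-0.73), with a median of -0.01 relative to all probe sets. Of 25 genes of mitochondrial translation and transcription, 1 fell, the elongation factor Gfm1 (-0.56), with a median of 0.07. These falls, 8.57% and 4% of the lists, were below the share of all probe sets.

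Genes of the fuel pathways that feed the chain were read next, beside 14.2% of all probe sets lower in CIA. Of 16 genes of the tricarboxylic acid cycle and pyruvate dehydrogenase, 9 fell in CIA and 0 rose, with a median of -0.38 relative to all probe sets. In CIA+MLIF against CIA 8 of them rose, beside 11.5% of all probe sets. Citrate synthase, Cs, gave 11.30 and 11.35 on adjuvant, 11.22 and 11.15 on adjuvant+MLIF, 10.08 and 10.12 on CIA, and 11.07 and 11.32 on CIA+MLIF (-1.23 in CIA, adjusted p = 0.000584). Idh3a, a subunit of isocitrate dehydrogenase, fell by 0.91 (log2, adjusted p = 0.00275). Of 15 genes of fatty acid oxidation, 3 fell, among them Hadh (-0.89) and Acadl (-0.71), with a median of -0.12. After quantile normalization 12 of the 16 and 7 of the 15 fell, beside 13.7% of all probe sets, and 1 of the 15 rose, beside 14.4%. The difference between these lists was not tested.

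Of 16 regulators of mitochondrial genes, 5 fell and 1 rose in CIA, which is 31.2% and 6.25% beside 14.2% and 4.3% of all probe sets. Ppargc1a, the coactivator PGC-1alpha, gave 7.97 and 7.75 on adjuvant, 7.62 and 7.61 on adjuvant+MLIF, 6.08 and 6.46 on CIA, and 7.92 and 7.86 on CIA+MLIF (-1.59 in CIA, adjusted p = 0.000287). Mef2c, a transcription factor of muscle, gave 11.34 and 11.41 on adjuvant and 9.60 and 9.89 on CIA (-1.63, adjusted p = 0.00015). For both genes the CIA arrays lay far below all others. The Ppargc1a signals in CIA were near the medians of the control entries on those arrays, 5.88 and 6.44.

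**Figure D5:**
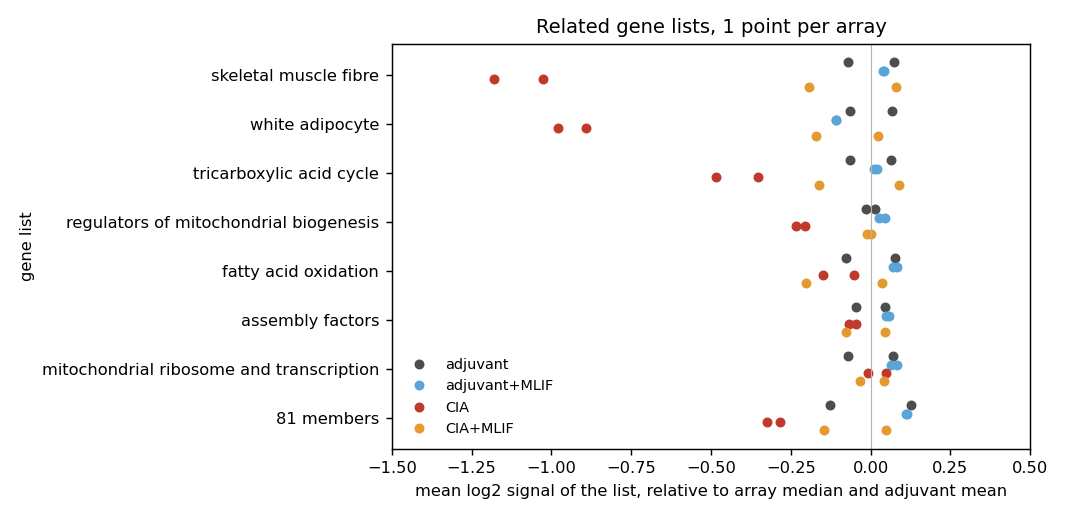
Mean log2 signal of related gene lists and of the 81 members, relative to the median of the array and to the mean of the adjuvant arrays; points are single arrays coloured by group. The CIA arrays lie at -1.03 and -1.18 for skeletal muscle fibre genes, at -0.35 and -0.48 for the tricarboxylic acid cycle and at -0.28 and -0.32 for the 81 members.

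Markers of cell types moved with these results. Of all probe sets, 14.2% were lower and 4.3% higher in CIA, and 11.5% were higher and 3.25% lower in CIA+MLIF against CIA. All 16 skeletal muscle fibre genes fell in CIA and rose in CIA+MLIF against CIA, among them Myh7, the slow myosin heavy chain (-2.56 and 2.43), and Des, desmin (-1.84 and 1.90), and their median in CIA was -1.13 relative to all probe sets, against -0.26 for the 81 members. Averaged over the list, the muscle genes lay 5.32 to 5.47 above the array median on the adjuvant arrays, 5.44 on both adjuvant+MLIF arrays, 4.22 to 4.37 on CIA and 5.20 to 5.48 on CIA+MLIF. Of 8 white adipocyte genes, 7 fell in CIA, and the list lay 2.56 to 2.69 above the array median on adjuvant, 2.52 on both adjuvant+MLIF arrays, 1.64 to 1.73 on CIA and 2.45 to 2.65 on CIA+MLIF. The brown fat marker Ucp1 was below the control entries in adjuvant, CIA and CIA+MLIF, and of its list of 7 genes 1 rose and 1 fell.

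Markers of epidermis, neutrophils and osteoclasts were higher in CIA, beside 4.3% of all probe sets higher and 14.2% lower. Of 11 epidermal genes 10 rose in CIA, and the list lay from -0.85 to -0.78 of the array median on adjuvant, -0.74 to -0.71 on adjuvant+MLIF, 3.98 to 4.13 on CIA and 2.82 to 2.94 on CIA+MLIF. All 10 neutrophil genes rose in CIA and fell in CIA+MLIF against CIA, with list levels of 0.14 to 0.34, 0.94 to 0.95, 2.45 to 2.61 and 0.44 to 0.47 in adjuvant, adjuvant+MLIF, CIA and CIA+MLIF. Of 9 osteoclast genes 8 rose in CIA, with list levels of 0.37 to 0.54, 0.65 to 0.67, 2.0 to 2.24 and 0.37 to 0.50 in the same order. Of 10 chondrocyte genes 1 rose and 1 fell, with list levels from 2.39 to 2.60 over all arrays. The part of these cell types in the changes of the respiratory chain genes was not tested.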

How the data were processed

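The values are the deposited log2 signals of 8 Affymetrix Mouse Gene 1.0 ST arrays, from 300 ng of RNA each per the labels' protocols. What software, background correction, normalization and probe set summary the authors used is not given in the sources used here. The log2 scale was read from the values, and the direction is that of signal. Gene-wise centring was not seen in the values, and whether the arrays were scaled to each other stays unknown. The first 6613 of 35557 entries, with consecutive identifiers, were taken as control entries and dropped. The remaining 28944 probe sets were fitted with limma 3.58.1 in R 4.3.3, with 4 group means, 4 residual degrees of freedom and Benjamini-Hochberg adjustment over all of them. Platform annotation gave 21789 of them 1 symbol, 1621 several and 5534 none, and all 81 members matched RefSeq by gene identifier. Figures were drawn with Python 3.11.15 and Matplotlib 3.10.9.

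Of the 81 genes, 16 had several probe sets, and in CIA against adjuvant 0 of these had probe sets of opposite sign. No filter on low signal was applied, so all 81 entered the tests. The fit was checked on simulated data, with known log2 changes added to the CIA arrays of 50 probe sets for each size. It called 1 of 50 at a change of 0.5, 23 at 1, 46 at 2 and 46 at 3. Of the probe sets left unchanged, 6 were called. Most changes of 0.5 were thus missed in this simulation, so a member that did not pass may still differ. The members and the gene lists were chosen with earlier results of these data known. Genes named by rule were the isoform pairs, the tissue-restricted forms, complex II, the members most changed in each of complexes I, III, IV and V in CIA against adjuvant (3) and CIA+MLIF against CIA (2) among those past the threshold, members past it for the interaction, and up to 2 genes of each list with the most change; others are said to be chosen after their values were seen. Alternatives were quantile normalization, centring each array, leaving out dim probe sets, a trended and robust variance, the mean of all probe sets of a gene, only the groups compared, the replicate number as a block, and leaving out each array. The labels name no pairing by replicate number, and the main fit used none. Deviations of same-numbered arrays correlated at 0.39 between adjuvant and CIA+MLIF and at -0.11 between CIA and CIA+MLIF. For the other 4 pairs of groups the correlation lay between -0.06 and 0.00. What the same-numbered adjuvant and CIA+MLIF arrays have in common was not tested.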

Additional observations from a re-analysis of the deposited data

Results flagged for a closer look

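The effect of MLIF in collagen-treated mice differed from its effect in adjuvant-treated mice, by limma's interaction term, for 2 members: Cox6a2 (1.49, adjusted p = 0.0109) and Cox7a1 (1.58, adjusted p = 0.016). That is 2.47% of the members, beside 5.62% of all probe sets higher and 1.62% lower.

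In the other lists the interaction passed for 0 of 9 subunits and carriers outside the rule, 0 of 35 assembly factors, 0 of 15 genes of fatty acid oxidation, 0 of 25 of mitochondrial translation and transcription, 3 of 16 of the tricarboxylic acid cycle, 2 of 16 regulators and 10 of 16 skeletal muscle fibre genes. For white adipocyte genes 5 of 8 were higher. Lower were 6 of 11 epidermal, 10 of 10 neutrophil and 8 of 9 osteoclast genes. Of 7 brown adipocyte genes 1 was higher and 1 lower, as were 1 and 1 of 10 chondrocyte genes. Of all probe sets, 5.62% were higher and 1.62% lower for the interaction. Genes named for their change in CIA, which shares the CIA arrays with the interaction, include some that did not pass, such as Cyc1 (adjusted p = 0.275), Gpd2 (0.208), Atpaf1 (0.197) and Cox20 (0.376). It passed for the following named genes. It was 1.24 for Cs, 1.03 for Idh3a, 1.37 for Mef2c and 1.86 for Ppargc1a among genes of mitochondrial metabolism and its regulators. Among skeletal muscle fibre genes it was 2.49 for Myh7 and 1.88 for Des. Among white adipocyte genes it was 1.73 for Plin1 and 1.53 for Cidec. In the brown adipocyte list the 2 named genes went opposite ways, with 1.36 for Zic1 and -2.52 for Elovl3. Among inflammatory and bone-resorbing cell genes it was -2.81 for Retnlg, -3.16 for S100a8, -2.97 for Mmp9 and -2.47 for Acp5. It was -1.78 for the keratin gene Krt2, 2.09 for Cytl1 and -1.31 for Col11a1. Positive values mark a larger rise, or a smaller fall, with MLIF in collagen-treated mice.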

How the results depend on the processing

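With 2 arrays a group and a median SE of 0.18, single arrays set many calls, and where an array was left out the lone array of its group was assumed to vary like the other groups. Leaving out each array moved the members lower in CIA against adjuvant from 2 to 65, those higher in CIA+MLIF against CIA from 2 to 59 and those higher for the interaction from 0 to 34. The median shift relative to all probe sets ran, in CIA against adjuvant, from -0.21 to -0.057 for complex II, from -0.35 to -0.14 for complex III, from -0.31 to -0.086 for complex IV and from -0.35 to -0.062 for complex V. In CIA+MLIF against CIA it ran from 0.043 to 0.27 for complex II, from 0.069 to 0.23 for complex IV and from 0.011 to 0.30 for complex V. After quantile normalization the members higher in CIA against adjuvant were 1, as with centred arrays, those higher in CIA+MLIF against CIA were 34, those lower were 2, also 2 with centred arrays, and those higher for the interaction were 15. Fitting only the groups compared gave 9 members lower in CIA against adjuvant and 7 higher in CIA+MLIF against CIA. The interaction gave 6 without the lowest tercile of signal and 6 with a trended and robust variance. For these settings and for centred arrays the share of all probe sets was not counted. These member counts therefore cannot be set against the whole array.

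Quantile normalization moved the median shift to -0.27 for complex II and -0.43 for complex V in CIA against adjuvant, and to 0.40, 0.30, 0.39, 0.24 and 0.38 for complexes I to V in CIA+MLIF against CIA. Reversed in CIA against adjuvant were Cox4i2 with centred arrays (0.023), Cox6b2 after quantile normalization (0.0079), Cox8a without adjuvant replicate 1 (-0.058, and 0.43 without replicate 2) and Ndufa4l2 without CIA replicate 2 (-0.057). Reversed in CIA+MLIF against CIA were Cox8a after quantile normalization (-0.089), with centred arrays (-0.19), without CIA replicate 1 (-0.076, and 0.15 without replicate 2) and, just below 0, without CIA+MLIF replicate 2, Cox4i2 with centred arrays (-0.054), Cox6b2 after quantile normalization (-0.10) and with centred arrays (-0.024), and Sdhb without CIA replicate 1 (-0.0062, and 0.47 without replicate 2). None of these was past the threshold on the deposited values, and the cause was not tested. The labels link arrays of different groups only by replicate number. With that number as a block 30 members were lower in CIA against adjuvant and 21 higher in CIA+MLIF against CIA. The share of all probe sets was not counted with this block either.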
